A study of Mus musculus with 6 samples.

Results

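The brush border of the small intestine is the field of microvilli on the luminal face of enterocytes, the absorptive cells of the epithelium. Hydrolases anchored in its membrane carry out the last steps of digestion: disaccharidases release simple sugars, peptidases trim peptides to amino acids and short peptides, and alkaline phosphatase removes phosphate groups, including those of bacterial lipopolysaccharide. These enzymes are classical products of differentiated enterocytes rather than of tuft cells, the rare chemosensory cells of the same epithelium. Transcripts of 9 such genes were examined here in RNA from sorted tuft cells: the disaccharidase genes Sis, Lct and Treh, the peptidase genes Anpep, Dpp4, Ace, Mep1a and Mep1b, and the alkaline phosphatase gene Alpi. They are grouped by place and function, the choice having been made with earlier results of these data known, and make up 9 of the 23420 genes of the expression table.

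The data were 6 RNA-sequencing libraries of 1 group, each labelled as 1 mouse replicate. The tuft cells came from the ileum of Gfi1b-eGFP mice on a C57BL/6J background, which carry 1 green fluorescent protein allele at the Gfi1b locus, and the study used mice aged 6 to 12 wk. Cells were gated as GFP+, EpCam+, CD45- and negative for propidium iodide, a gate that admits any epithelial cell carrying enough green fluorescence. No GFP- epithelium was sequenced alongside, so levels in tuft cells could not be set against levels in enterocytes. Expression was given as TPM, a share of all transcripts in a library that corrects for transcript length and so allows levels of genes to be compared within a library.

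Of the 14 tuft cell genes listed, 13 were in the table, all of them above 0 in every library. Their summed level was 6337 to 10743 TPM per library. Markers of the labelled cell type were thus present. With no other sorted cells to compare, these values do not measure how pure the gate was. Genes of other epithelial cells were present too. The 14 enterocyte genes, none of them a hydrolase studied here, summed to 7768 to 17980 TPM, above the tuft cell sum in every library. Fabp1, a fatty acid binding protein, was the main part, and Cdhr5 was next at 1462 to 2931 TPM. Both genes were highest in replicates 1 and 2, as was the tuft cell sum. The ileal enterocyte gene Fabp6, a bile acid binding protein, had 1290 to 2673 TPM. The 7 Paneth cell genes ranged from 3563 to 21421 TPM, highest in replicate 4, and the 7 goblet cell genes from 778.4 to 4318 TPM, highest in replicate 6. Of the 4 endothelial genes, 3 were listed at 0 in every library and Pecam1 reached 0.28 TPM in 1, while the 6 lymphocyte genes summed to 20.95 to 211.8 TPM. These last lists matter for Dpp4, Ace and Anpep, which blood vessel or immune cells also make. Rn45s, the ribosomal RNA precursor, held 23.1% to 32.6% of each library's TPM. Gm20594 was at 15588 to 21283 TPM in replicates 1 to 3 and at 51804 to 56441 TPM in replicates 4 to 6. The labels name no batch, but relations across libraries are also given below within these sets of 3.

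All 9 hydrolase genes were listed above 0 in all 6 libraries, and 7 of them had a mean of at least 10 TPM. Their summed level was 637.8, 408.6, 326.6, 932.7, 480.6 and 505.6 TPM in replicates 1 to 6, which is 0.0327% to 0.0933% of each library's TPM. The sum was highest in replicate 4 and lowest in replicate 3. The 5 peptidases supplied most of it in every library, 77.6% to 80.2%, a narrow range beside the 10.7% to 17.9% of the 3 disaccharidases and the 2.39% to 10.1% of Alpi. In a bulk sample, the number of cells of a type and the RNA that each holds of a gene cannot be told apart, so a low level may be few transcripts in every cell or many in a few cells.

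**Figure D1:**
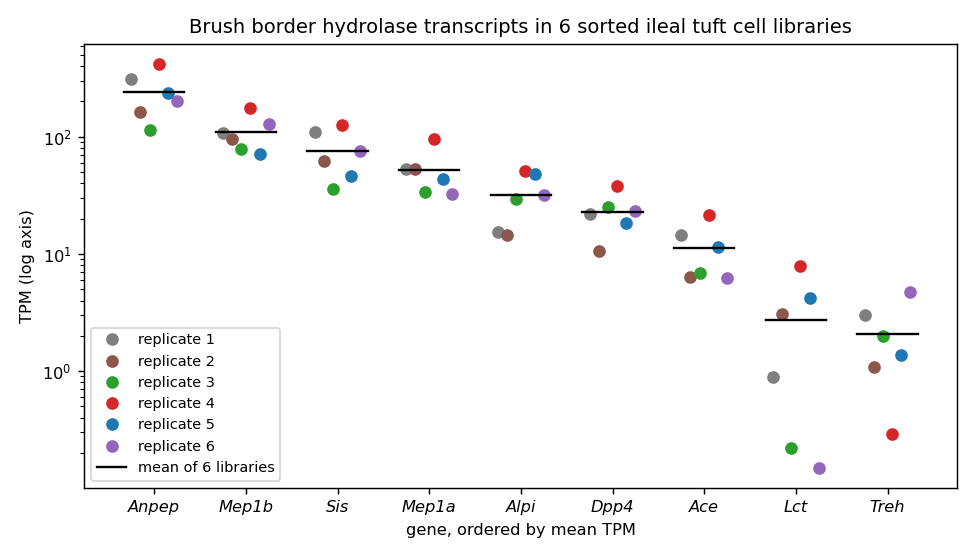
TPM of the 9 brush border hydrolase genes (log axis) in each of the 6 libraries, 1 point per library and a black line at the mean. Anpep leads in all 6 libraries, Lct and Treh lie below the other 7 genes on average, and the red points of replicate 4 are the highest for every gene but Treh.

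Among the peptidases, Anpep encodes aminopeptidase N, which takes single residues from the amino end of peptides. It led the 9 genes in 6 of 6 libraries. Replicates 1 to 6 had 311.63, 162.74, 114.31, 416.25, 235.31 and 201.75 TPM (mean 240.3 ± 109, SD, n = 6). Replicates 4 and 1 were the highest and replicate 3 the lowest. Among genes above 0 in the same library, Anpep ranked at a percentile of 92.1 to 98.0.

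Mep1a and Mep1b encode the alpha and beta subunits of meprin, a zinc metallopeptidase of the brush border. Mep1b was at 106.85, 94.91, 78.86, 176.3, 71.8 and 128.6 TPM in replicates 1 to 6 (mean 109.6 ± 38.5 TPM, SD, n = 6). Mep1a was at 53.2, 53.1, 34.0, 95.3, 43.6 and 32.7 TPM (mean 52.0 ± 23.0 TPM, SD, n = 6). Both subunits peaked in replicate 4, but the next highest library was replicate 6 for Mep1b and replicate 1 for Mep1a, and replicate 6 was the lowest for Mep1a. The beta subunit exceeded the alpha subunit in 6 of 6 libraries, by 1.65 to 2.32 times in replicates 1 to 5 and by 3.93 times in replicate 6. Mep1b varied least of the 9 genes, with a coefficient of variation of 35.1%.

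Dpp4 encodes dipeptidyl peptidase 4, which cuts dipeptides that end in proline or alanine and inactivates the incretin hormones. It was at 22.05, 10.53, 25.38, 37.9, 18.31 and 23.22 TPM in replicates 1 to 6 (mean 22.9 ± 9.01 TPM, SD, n = 6). Apart from replicate 4 at the top and replicate 2 at the bottom, the libraries lay within 18.3 to 25.4 TPM. Ace encodes angiotensin-converting enzyme, a peptidase of vessels and of the brush border that releases dipeptides from the carboxyl end. It was at 14.4, 6.38, 6.90, 21.6, 11.5 and 6.25 TPM (mean 11.2 ± 6.08 TPM, SD, n = 6), with replicates 4, 1 and 5 above the other 3. The 3 endothelial markers at 0 and the trace of the fourth stand beside these Ace values. On the opposite strand, GENCODE M21 places the genes Gm13561 and Gm11651, whose spans cover 1842 exonic bases of Dpp4 and 3310 of Ace. Neither has a row in the table, and without a stated strand setting reads of both strands cannot be told apart.

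Among the disaccharidases, Sis encodes sucrase-isomaltase, which splits sucrose and the branched ends of starch. Replicates 1 to 6 had 110.57, 62.24, 35.81, 126.16, 45.99 and 76.18 TPM (mean 76.2 ± 35.8, SD, n = 6). Replicates 4 and 1 were again the highest and replicate 3 the lowest, as for Anpep. The ratio of Anpep to Sis, which no scaling of a library can change, stayed between 2.61 and 3.30 in 5 libraries and was 5.12 in replicate 5.

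Lct encodes lactase, the milk sugar enzyme that in adult rodents is low and mostly jejunal. It was at 0.89, 3.05, 0.22, 7.86, 4.18 and 0.15 TPM in replicates 1 to 6 (mean 2.73 ± 3.00 TPM, SD, n = 6), so that its spread exceeded its mean. Without replicate 4 the mean was 1.70 TPM. Treh encodes trehalase, which splits the sugar of fungi and insects. It was at 3.00, 1.08, 1.98, 0.29, 1.36 and 4.75 TPM (mean 2.08 ± 1.59 TPM, SD, n = 6). Treh was lowest where Lct was highest, in replicate 4, and highest where Lct was lowest, in replicate 6. The 2 genes ranged 52.4-fold and 16.4-fold between libraries, against 2.46-fold to 3.64-fold for the other 7 genes and a median of 2.78-fold over the 10721 genes tested, those above 0 in every library whose mean reached 1 TPM. TPM keeps no read number, so how much of this range is counting error at low level is unknown.

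The stretch of 250 bases before the start site is shown for these 3 disaccharidase genes, of which Sis was abundant while Lct and Treh were low and varied most between libraries. The sequences are those of RefSeq on GRCm38.p6, read 5′ to 3′ along the gene. Capitals mark matches on either strand to 2 motifs of intestinal transcription factors. The letters TTTAT are the core bound by CDX factors. The site of the GATA factors was searched as AGATAA. The windows are chr3:72967864-72968113 for Sis, chr1:128328319-128328568 for Lct, both on the minus strand, and chr9:44672983-44673232 for Treh on the plus strand.
Sis: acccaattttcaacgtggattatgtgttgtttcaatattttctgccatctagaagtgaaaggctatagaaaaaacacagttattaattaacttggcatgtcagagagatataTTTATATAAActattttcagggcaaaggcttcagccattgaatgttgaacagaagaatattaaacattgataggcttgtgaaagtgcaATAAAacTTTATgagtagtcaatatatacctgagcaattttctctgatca
Lct: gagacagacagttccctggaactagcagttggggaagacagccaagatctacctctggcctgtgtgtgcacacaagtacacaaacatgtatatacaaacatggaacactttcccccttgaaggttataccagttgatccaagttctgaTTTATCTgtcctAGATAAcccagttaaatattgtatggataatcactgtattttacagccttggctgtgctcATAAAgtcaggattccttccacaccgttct
Treh: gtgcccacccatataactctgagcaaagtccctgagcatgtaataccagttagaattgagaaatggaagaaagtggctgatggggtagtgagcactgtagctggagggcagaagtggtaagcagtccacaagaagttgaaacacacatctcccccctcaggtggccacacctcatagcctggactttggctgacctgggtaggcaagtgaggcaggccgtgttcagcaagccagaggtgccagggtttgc

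The Sis window held 4 matches to TTTAT, of which the pair at positions -138 and -133 from the start site overlaps 2 matches to TATAAA. These are the letters of the TATA box, matched here at -138 and -134 by letters alone. The Lct window held 2 matches to TTTAT and 2 to AGATAA, with 1 of each sharing bases at -102 and -101. The Treh window held neither of these motifs, which says only that the letters are not in this stretch, and 2 matches to CAAAGT. Over 32851 promoter windows of the same length, 37.3% held TTTAT, 9.99% AGATAA and 12.4% TATAAA. RefSeq windows were found for 8 of the 9 genes, all but Mep1b, and Ace had 2, 1 for each of its start sites. The second Ace window and the Anpep window lie wholly inside the gene spans given below. Of these 9 windows, 5 held TTTAT, 2 AGATAA, 4 TATAAA and 5 CAAAGT, a part of the site of the factor HNF4 that 12.6% of all windows held. Both Ace windows are among these 5. Besides Sis, TATAAA lay at -33 in Alpi, at -31 in the first Ace window and at -227 in Dpp4.

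Alpi encodes intestinal alkaline phosphatase. It was at 15.23, 14.57, 29.2, 50.97, 48.43 and 31.98 TPM in replicates 1 to 6 (mean 31.7 ± 15.6 TPM, SD, n = 6). Replicate 4 was the highest, with replicate 5 close behind, and replicates 1 and 2 were the lowest, which set Alpi apart from Sis and Anpep. It was the only one of the 9 genes whose values did not overlap between the sets of 3, at 19.7 ± 8.26 TPM in replicates 1 to 3 and 43.8 ± 10.3 TPM in replicates 4 to 6 (SD, n = 3 each). Of all genes tested, 3.52% were higher in replicates 4 to 6 without overlap, 13.6% were lower, and 17.1% did not overlap in either direction. The 1 of 9 is above the share for its own direction and below that for either direction. A single gene cannot tell the 9 genes from this background. The ratio of Alpi to Sis ran from 0.138 in replicate 1 to 1.05 in replicate 5. Alpi has a close neighbour and relative on chromosome 1, Akp3, and 4.88% of the 25-base words of its transcript occur in transcripts of Akp3, more than for any other gene. Akp3 itself was at 15.8, 4.78, 0, 4.89, 0 and 1.11 TPM, so how reads were divided between both genes is uncertain. In all, 9.86% of the words of Alpi occur in another gene. For the other 8 genes that share was 0 to 5.14%.

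By position on GRCm38 in GENCODE M21, Sis lies on chromosome 3 (72888557 to 72967863, minus strand), Lct and Alpi on chromosome 1 (128284756 to 128328318 and 87098002 to 87101606, both minus strand) and Anpep on chromosome 7 (79821803 to 79861059, minus strand). Dpp4 lies on chromosome 2 (62330073 to 62412231, minus strand), Ace on chromosome 11 (105967945 to 105989964, plus strand) and Treh on chromosome 9 (44673233 to 44686305, plus strand). The meprin genes are on different chromosomes, Mep1a on chromosome 17 (43474324 to 43502812, minus strand) and Mep1b on chromosome 18 (21061923 to 21100199, plus strand).

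Whether the genes differed in level was tested for all 36 pairs, within each library, on the log2(TPM + 1) scale. In 31 of 36 pairs the same gene was higher in all 6 libraries, which gives p = 0.03125, the smallest that the two-sided exact sign-flip permutation test allows with 6 libraries (adjusted p = 0.0363 over the 36 pairs, Benjamini-Hochberg). Anpep exceeded Mep1b, the next gene, by 1.07 ± 0.490 on the log2 scale (SD, n = 6, higher in 6 of 6). Mep1b and Sis were not separated. Mep1b was higher by 0.59 ± 0.381 in 5 of 6 libraries (p = 0.0625 by the exact test, 0.0682 adjusted), with Sis higher in replicate 1. Sis exceeded Mep1a in 6 of 6 libraries, by 0.50 ± 0.495.

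The middle of the order was not resolved. Mep1a exceeded Alpi in 5 of 6 libraries by 0.75 ± 0.861 (exact p = 0.0938, 0.0993 adjusted), and Alpi exceeded Dpp4 in 5 of 6 by 0.39 ± 0.597 (exact p = 0.1875, 0.193 adjusted). Sis exceeded Alpi in 5 of 6 libraries by 1.26 ± 1.06 (exact p = 0.0625, 0.0682 adjusted), and Alpi was higher in replicate 5. Dpp4 exceeded Ace by 1.02 ± 0.562 and Ace exceeded Lct by 1.98 ± 0.917, both in 6 of 6 libraries. Lct and Treh shared the bottom, with Lct higher in 3 of 6 libraries and a difference of 0.03 ± 1.91 (exact p = 0.969, 0.969 adjusted). Ace held rank 7 in every library and Dpp4 rank 5 or 6.

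Across libraries, the most visible common feature was replicate 4, noticed after the values were seen. Of the 9 genes, 8 had their highest TPM there, against 12.4% of the 10721 genes tested, and the remaining gene, Treh, had its lowest. Relative to the median of the other 5 libraries, replicate 4 was 1.72 times as high for Dpp4, 1.75 for Alpi, 1.86 for Mep1b, 2.03 for Sis, 2.06 for Anpep, 2.18 for Mep1a, 3.13 for Ace and 8.83 for Lct. Relative to the next highest library the same values were smaller, from 1.05 for Alpi to 1.79 for Mep1a and 1.88 for Lct. Scaling the libraries by median-of-ratios factors left 7 of 9 genes highest in replicate 4, as Alpi passed to replicate 5, beside 14.9% of all genes tested. Recomputing TPM with Rn45s and Gm20594 taken out also gave 7 of 9, beside 13.1%.

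**Figure D2:**
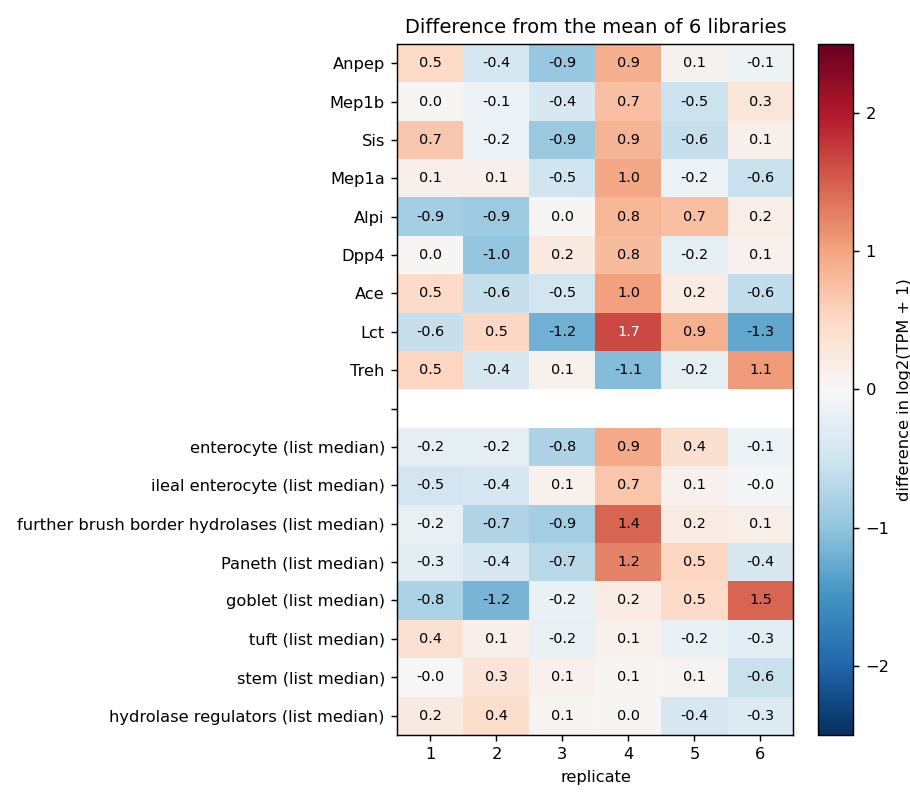
Each cell is a library's difference in log2(TPM + 1) from the mean of the 6 libraries, for the 9 hydrolase genes (top) and for the medians of 8 gene lists (bottom). Replicate 4 is above the mean for 8 of the 9 genes, and Treh is below it. All 8 list medians are above it too, the further hydrolase, Paneth, enterocyte and ileal enterocyte lists by more than the goblet, tuft, stem cell and regulator lists.

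Other cell type genes moved with replicate 4. Of the enterocyte genes tested, 9 of 13 were highest there, of the ileal enterocyte genes 3 of 4 and of the Paneth cell genes 6 of 7. The median of the enterocyte list was 5.50, 5.49, 4.94, 6.66, 6.11 and 5.58 on the log2(TPM + 1) scale in replicates 1 to 6, although its summed TPM was highest in replicate 1, where Fabp1 peaked. Of the tuft cell genes 2 of 13 were highest in replicate 4, of the stem cell genes 1 of 6 and of the goblet, lymphocyte and enteroendocrine genes 0 of 7, 0 of 4 and 0 of 3. The stem cell genes summed to 335.9 to 812.7 TPM and the 9 enteroendocrine genes to 379.5 to 536.1 TPM, both highest in replicate 2. Most of the enteroendocrine sum was Sct, at 330.8 to 473.7 TPM, while Chga and Chgb were highest in replicate 5. The part of other cells in the level of the hydrolase transcripts was not tested.

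**Figure D3:**
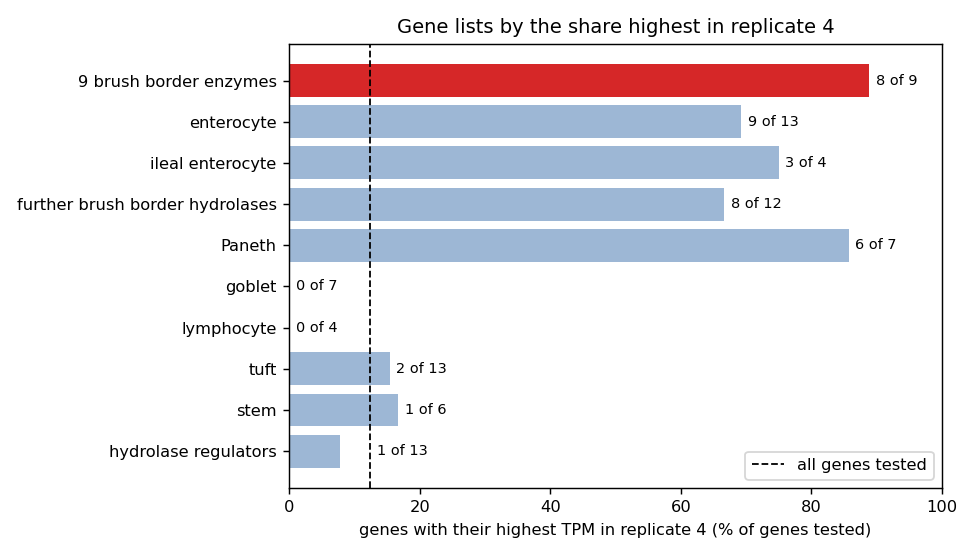
Share of each gene list with its highest TPM in replicate 4, among the genes tested, with the counts beside the bars. The dashed line at 12.4% is the share over all genes tested; the 9 hydrolase genes are at 8 of 9 and the goblet and lymphocyte lists at 0.

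Joint change was then measured as the correlation of each pair of genes over the 6 libraries, on the log2(TPM + 1) scale. Of the 36 pairs, 27 had a Pearson r above 0, and the median over all 36 was 0.39. All 8 pairs with Treh were below 0, and the 28 pairs without it, set apart after these values were seen, had a median of 0.59. The closest pairs were Anpep with Ace (r = 0.892, Spearman rho = 0.771) and Anpep with Sis (r = 0.863, rho = 0.829). Next came Mep1b with Sis (r = 0.856, rho = 0.886), Lct with Mep1a (r = 0.831, rho = 0.771) and Mep1a with Ace (r = 0.820, rho = 0.829), so that 5 pairs reached 0.8.

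None of these passed correction. Over 36 pairs, a single pair could not pass it, even at the smallest p that the permutation of 6 libraries allows. By the two-sided exact permutation test over all 720 pairings, 6 of 36 pairs had an unadjusted p under 0.05 by Pearson's r and 2 by Spearman's rho, and 0 an adjusted p under 0.05 by either. The values were p = 0.0194 (adjusted p = 0.22) for Anpep with Ace, p = 0.0306 (0.22) for Anpep with Sis and p = 0.0292 (0.22) for Mep1b with Sis, by the same exact permutation test. The rank correlations of these 3 pairs had p = 0.103 (adjusted p = 0.613), p = 0.0583 (0.525) and p = 0.0333 (0.525), by exact permutation. For Mep1a with Lct the exact permutation p was 0.0389 by r (adjusted p = 0.233) and 0.103 by rho (0.613), and for Mep1a with Ace 0.0292 (0.22) and 0.0583 (0.525). Without the 2 libraries farthest from the median of the first gene, r was 0.915, 0.529 and 0.753 for these 3 pairs, 0.495 for Mep1a with Lct and 0.355 for Mep1a with Ace.

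Close to these in size, but opposite in sign, was Lct with Treh (r = -0.890, exact permutation p = 0.0181, adjusted p = 0.22; rho = -0.886, p = 0.0333, adjusted p = 0.525). It was -0.709 without replicates 4 and 6. Both genes are near the bottom of the measured range, and without replicate 4 alone r was -0.791.

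The joint change rested largely on replicate 4. Without it, 0 of 36 pairs reached an r of 0.8, 21 of 36 were above 0 and the median r went from 0.39 to 0.08. Among the 28 pairs without Treh, 16 were above 0 and the median went from 0.59 to 0.08. Leaving out replicate 3 gave 3 pairs of at least 0.8. The pairs that stayed highest among the 28 without replicate 4 were Anpep with Ace at 0.788, Anpep with Sis at 0.775 and Mep1b with Sis at 0.771. Outside the 28, Mep1b with Treh was then as high, going from -0.201 to 0.788. Dpp4 with Treh went from -0.123 to 0.684, while Treh stayed below 0 with Lct, Mep1a and Ace. The meprin subunits went from 0.629 to -0.085, and Dpp4 with Lct from 0.050 to -0.741. Centring the values within replicates 1 to 3 and within replicates 4 to 6, which keeps replicate 4, left 24 of these 28 pairs above 0 and 6 pairs at or above 0.8.

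**Figure D4:**
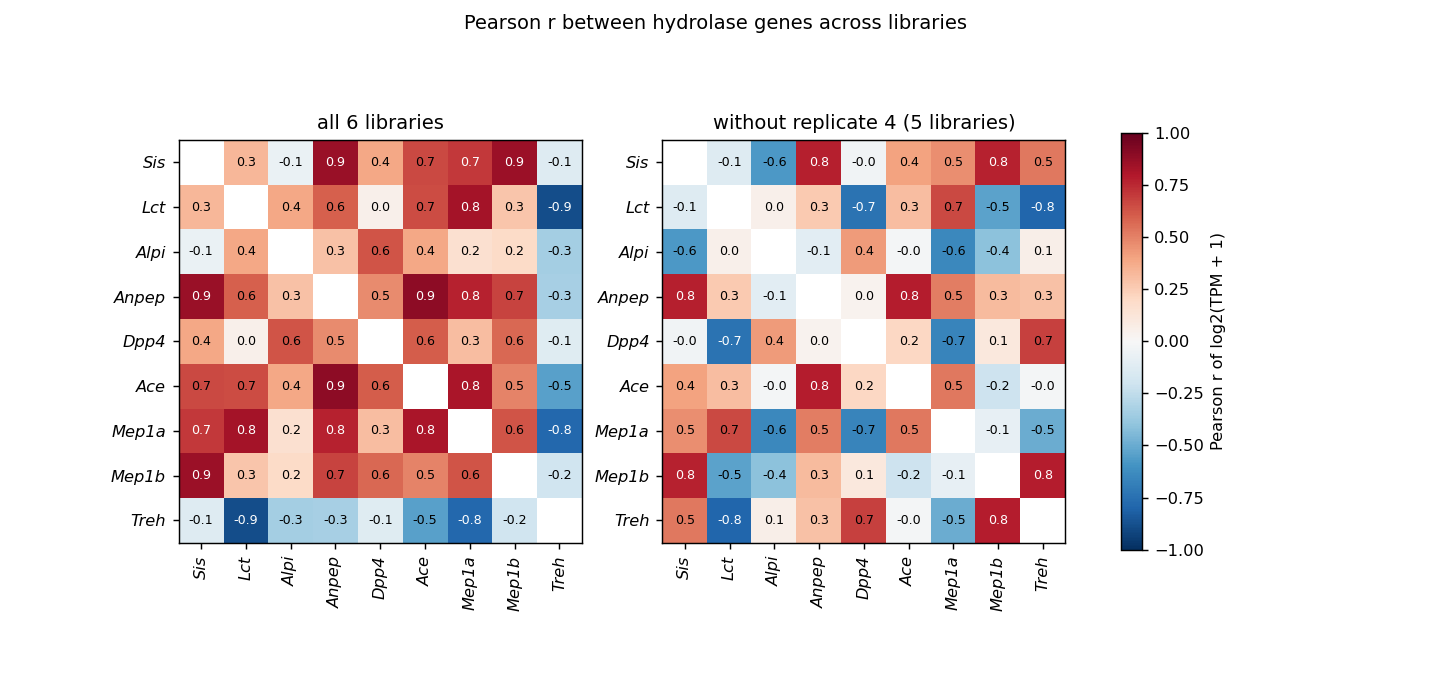
Pearson r of log2(TPM + 1) between the 9 hydrolase genes, over all 6 libraries (left) and without replicate 4 (right), red for positive and blue for negative values. The mostly red block of the left panel gives way to mixed signs on the right. There Anpep is at 0.8 (rounded) with Sis and Ace, and Mep1b with Sis and Treh. The row of Treh is negative throughout only on the left.

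A joint profile was formed as the mean of the centred log2(TPM + 1) values of the 9 genes, and each gene was compared with the profile of the other 8. Anpep (r = 0.922) and Ace (0.867) reached 0.8, or 2 of 9 genes, against 1.8% of the 10712 other genes tested. Other genes reached it as well: 5 of the 7 Paneth cell genes did, with a median r of 0.88 over the 7, and 2 of the 13 enterocyte genes tested, Fabp2 (0.923) and Apoa1 (0.866). Among the hydrolase genes, Mep1a followed at 0.767, Sis at 0.700 and Mep1b at 0.691, then Dpp4 at 0.545, Lct at 0.420, Alpi at 0.336 and Treh at -0.620. The median was 0.69 over the 9 genes and -0.11 over the others. Without replicate 4, 1 of 9 genes and 3.37% of the other genes reached 0.8.

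Of the genes whose mean reached 10 TPM, those nearest to the joint profile over the 6 libraries were Gm10845 (r = 0.974), Mta3 (0.963), Csnk1g2, Zfand2b, Pptc7, Trim15, Tinagl1, Cdk18, Plekhg2 and Ndufs4 (0.933). None is a brush border enzyme, and Gm10845 moved only from 47.5 to 68.6 TPM. The most opposite were Pcyox1 (r = -0.997), Ssna1, Ndufs7, Cops7a and Higd2a (-0.982). Pcyox1, a lysosomal enzyme that breaks down prenylcysteines, had 28.5 TPM in replicate 3 but 3.41 TPM in replicate 4. These names are a description over 6 libraries of 1 gate, and whether all 6 were sorted and prepared together is not stated.

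The 9 genes were also compared with the median of the enterocyte list and of the tuft cell list. With the enterocyte list 8 of 9 correlations were positive, beside 38.1% of 10699 other genes tested, and 2 of 9 reached 0.8, beside 1.99%. They were led by Lct (r = 0.848, exact permutation p = 0.0361, adjusted p = 0.35) and Anpep (r = 0.833, exact permutation p = 0.0389, adjusted p = 0.35), and Treh was at -0.618. The corresponding rank correlations were 0.600 (exact permutation p = 0.242, adjusted p = 0.597) and 0.829 (exact permutation p = 0.0583, adjusted p = 0.35). Leaving out replicates 3 and 4, where the list lay most apart from its median, r was 0.576 for Lct and 0.131 for Anpep. It was 0.864 for Alpi, but -0.763 for Sis and -0.788 for Mep1b. With the tuft cell list, 6 of 9 correlations were positive, beside 59.0% of the other genes, and none reached 0.8, beside 6.37%. There r ran from -0.569 for Alpi to 0.668 for Sis, and no gene had an unadjusted p under 0.05 by the exact permutation test. Leaving out replicates 1 and 6, where this list lay most apart, r ran from -0.775 for Treh to 0.812 for Sis. Mep1a was then at 0.792 and Mep1b at 0.747. Of the 18 correlations, 2 had an unadjusted and 0 an adjusted p under 0.05. Without replicate 4, r was 0.697 for Lct and 0.662 for Anpep with the enterocyte list, and no gene reached 0.8 with that list. Sis was at 0.188 and Mep1a at 0.305. With the tuft cell list r was then 0.868 for Mep1a, 0.682 for Sis, 0.519 for Anpep, 0.206 for Lct and -0.840 for Alpi. After centring within the sets of 3 libraries, r with the enterocyte list was 0.828 for Lct, 0.801 for Anpep, 0.940 for Ace and 0.882 for Mep1a, and with the tuft cell list it was 0.867 for Anpep and 0.853 for Sis.

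A list of 16 further hydrolases, most of them of the brush border, gave a setting for these levels. Of these, 15 were listed above 0 in some library and 12 in every library, and 10 had a mean of at least 10 TPM. Naaladl1, a peptidase of the ileal brush border, was the most abundant at 230.2 ± 58.8 TPM (SD, n = 6), close to the level of Anpep. It was highest in replicate 4, at 333.1 TPM, with an r of 0.905 with the joint profile. Mgam, maltase-glucoamylase and the closest functional partner of Sis, was at 152.5 ± 20.3 TPM and exceeded Sis in 6 of 6 libraries, by 1.17 to 4.03 times. Mgam was level across libraries, from 129.9 to 189.1 TPM, while Sis varied 3.52-fold, and its r with the joint profile was 0.107. Cndp2, a cytosolic dipeptidase included for comparison, was at 100.1 ± 20.4 TPM.

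The other peptidases of the list differed in their correlation with the joint profile, given as r. Enpep, glutamyl aminopeptidase, was at 89.8 ± 32.2 TPM and highest in replicate 1, with an r of -0.035 with the joint profile, and its ratio to Anpep ran from 0.187 in replicate 4 to 0.808 in replicate 3. Dpep1, a dipeptidase, was at 47.4 ± 17.6 TPM (r = 0.816), Ggt1, gamma-glutamyltransferase, at 18.3 ± 9.88 TPM (r = 0.873) and Xpnpep2, an aminopeptidase that cuts before proline, at 20.1 ± 4.04 TPM (r = 0.119). Mme, neprilysin, was low at 3.60 ± 3.88 TPM (r = 0.114).

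The lipid enzymes stood out in replicate 4. Enpp7, alkaline sphingomyelinase, was at 12.01, 9, 7.34, 66.5, 10.69 and 16.87 TPM in replicates 1 to 6 (r = 0.929 with the joint profile). Plb1, phospholipase B, was at 8.95, 5.84, 8.77, 71.6, 19.9 and 17.5 TPM (r = 0.883). Asah2, neutral ceramidase, did not share this and had 1.08 to 17.0 TPM (r = 0.055), highest in replicate 5. In all, 8 of the 12 further hydrolases tested were highest in replicate 4 and 5 of 12 had an r of at least 0.8, beside the 12.4% and 1.8% of all genes. Of the rest, Nt5e, the 5′-nucleotidase, was at 0 to 5.75 TPM and Folh1, a glutamate carboxypeptidase, at 0 to 1.52 TPM. Tmprss15, the duodenal enteropeptidase that activates trypsinogen, was listed at 0 in every library.

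Of 15 genes for transcription factors linked to hydrolase expression or enterocyte maturation, 13 were above 0 in every library and 11 had a mean of at least 10 TPM. Elf3 was at 495.0 ± 133 TPM, Cdx1 at 269.0 ± 114, Hnf4a at 133.9 ± 20.5, Klf4 at 95.7 ± 22.5, Gata5 at 54.2 ± 12.1, Cdx2 at 41.9 ± 4.83 and Hnf4g at 30.9 ± 6.28 TPM (SD, n = 6 each). Gata6 had a mean of 14.4 TPM and Smad4 of 13.2 TPM. Cdx2, which binds the Sis promoter, was not highest where Sis was, but in replicate 2, and its r with the joint profile was -0.171. Gata4, a factor of the proximal intestine, was at 0.20 to 6.50 TPM and Maf at 2.86 to 14.0 TPM. Prdm1, which holds back the adult enzymes in the suckling gut, was at 0 to 0.75 TPM. Only Maf, at 14.0 TPM, was highest in replicate 4 among the 13 regulators tested, and none reached an r of 0.8 with the joint profile.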

How the data were processed

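Per the study's methods, RNA of sorted tuft cells was amplified by a modified SMART-Seq2 protocol (18 cycles), tagged with Nextera XT and sequenced in paired ends. The labels add a 3′ polyA and a droplet preparation, and TopHat among the tools. The authors mapped reads to the UCSC mm10 transcriptome with Bowtie (1 mismatch, at most 15 alignments) and deposited gene-level TPM from RSEM v1.2.3, to 2 decimals. RSEM shares reads that map to several genes by estimation. The strand setting and any gene filter: not given in the sources used here. TPM keeps no depth, so counting error could not be given, and only the spread between libraries limits each statement. DESeq2, named by the study, was not used.

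Columns were matched to replicates by number. Values were used as deposited, as log2(TPM + 1) for tests. Gene levels were compared within libraries by two-sided exact sign-flip tests (64 assignments), and correlations by exact permutation (720 pairings), each adjusted by Benjamini-Hochberg over its family of 36 pairs or 18 relations. The joint profile and counts of the highest library used the 10721 genes above 0 in every library whose mean reached 1 TPM, and an r of at least 0.8 was called. P-values set the observed values against sign flips or re-pairings of these libraries, and do not measure the size of a spread. The members and lists were chosen with earlier results of these data known, replicate 4 was singled out after its values were seen, and all genes of the fixed lists were to be named where their mean was at least 10 TPM, together with every further hydrolase and regulator and the 10 genes most like and 5 most unlike the joint profile. Cell type lists are given by sum and count. A few genes of the hydrolase and regulator lists are in the counts but are not reported here by name. Gene positions come from GENCODE M21 (GRCm38) and promoters from RefSeq (GRCm38.p6). The profile calls and exact tests were tested on simulated data. Alternatives were another pseudocount, a filter at 0.1 TPM, 2 rescalings, Spearman correlation, the Mann-Whitney U test, centring within sets of 3 libraries and leaving out each library. Tests were run in scipy 1.17.1 on tables read with pandas 2.3.3 (Python 3.11.15, numpy 2.4.6), and plots drawn in matplotlib 3.10.9.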

Additional observations from a re-analysis of the deposited data

Results flagged for a closer look

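In 5 of 25 measures screened (the 9 genes, their sum and 15 further hydrolases), 1 library lay farther from its nearest neighbour, relative to the whole range, than Dixon's 95% critical value for 6 libraries. For normally distributed values, chance would do so in about 1 of 20, or 1.25 of 25, and the measures are not independent. The screen used TPM, not the log2(TPM + 1) scale of the tests. TPM stretches high values, so that rate may not hold and the flags may depend on the scale. Among the 9 genes the flag held for Mep1a alone, at 95.33 TPM in replicate 4 and at most 53.16 TPM elsewhere (ratio 0.674). Also in replicate 4, Enpp7 was at 66.5 TPM and at most 16.9 TPM elsewhere (0.839), and Plb1 at 71.63 TPM and at most 19.9 TPM elsewhere (0.787). Akp3 was at 15.8 TPM in replicate 1 and at most 4.89 TPM elsewhere (0.691). Mme was at 11.1 TPM in replicate 5 and at most 3.35 TPM elsewhere (0.718). The cause was not tested for any of these.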

How the results depend on the processing

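The 31 separated pairs of levels stayed 31 under the other pseudocount, the filter, both rescalings and the exact Mann-Whitney U test, which separated Sis from Alpi but not Sis from Mep1a. Pseudocounts and rescalings cannot change which gene of a library is higher. With 1 library left out the smallest sign-flip p is 0.0625, so that test was not run. The same gene was then higher in every library in 31 to 33 pairs. Pairs with an r of at least 0.8 went from 5 to 3 by Spearman's rho and to 0 to 7 with 1 library left out (0 without replicate 4, 3 without replicate 3). Genes called with the joint profile went from 2 to 1 by Spearman's rho and to 1 to 4 with 1 library left out (1 without replicate 4, 4 without replicate 5). The share of other genes called was 2.51% when genes above 0 in at least 2 libraries were tested, whatever their mean. Genes with an r of at least 0.8 with the enterocyte list went from 2 to 1 at a pseudocount of 0.1, to 4 when centred within sets and to 0 to 5 with 1 library left out (0 without replicate 4, 1 without replicate 3, 5 without replicate 5, 4 without replicate 1 or 6). For the tuft cell list, 0 became 1 under median-of-ratios factors and by Spearman's rho, 2 when centred within sets and 0 to 1 with 1 library left out (1 without replicate 1, 4 or 6). The cause was not tested. The adjusted p of every pair correlation stayed at or above 0.05 under the other pseudocount, the filter, both rescalings, Spearman's rho and each library left out. It was not computed for the centred values. A single pair could not have gone under 0.05 in any of these settings. With 1 library left out, several pairs at the smallest p would have been needed, so these values say little about stability. Median-of-ratios factors differed by up to 0.32 (log2) between libraries and moved no mean by more than its SD, while rescaling without Rn45s and Gm20594 raised all 9 means by 1.45 to 1.49 times, 4 of them beyond their SD. The libraries form 1 group, so there was no pairing between groups to test.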
